A study of Mus musculus with 12 samples.

Results

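Csf1r, Cd14, Tlr2, Tlr4, Itgam, Itgb2, Fcer1g and Tyrobp encode surface receptors of macrophages and the adaptors that signal for them. These 8 genes were picked by name, with earlier results of these data known. All 8 were found among the 9621 genes listed in every library. They are the receptor for the growth factor CSF1 (Csf1r), the LPS co-receptor CD14 (Cd14), a pair of Toll-like receptors (Tlr2 and Tlr4), the chains of the integrin CD11b/CD18 (Itgam and Itgb2) and a pair of ITAM adaptors (Fcer1g and Tyrobp).

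RAW264, a mouse macrophage cell line, was studied in 3 conditions. Cells received lipopolysaccharide (LPS, 100 ng/ml) together with the glucocorticoid dexamethasone (DEX, 10 µM) for 30 min, LPS alone (100 ng/ml) for 30 min, or neither (basal), and all cells were given cycloheximide (100 µg/ml), which stalls ribosomes on mRNA, before extraction. From each condition polyadenylated mRNA and ribosome-protected fragments (footprints) were sequenced on an Ion PGM with 2 biological replicates, which makes 12 libraries. A value here is CPM, the reads of a gene scaled to the total reads of its library, and it is not divided by gene length, so levels are compared between conditions and not between genes.

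As background, macrophages depend on CSF1 receptor signalling for survival. CD14 hands LPS to the complex of TLR4 and MD-2, while TLR2 pairs with TLR1 or TLR6 to bind bacterial lipopeptides. CD11b/CD18 binds complement-coated particles, and the adaptors FcRγ (Fcer1g) and DAP12 (Tyrobp) carry ITAM motifs that recruit the kinase Syk for receptors without a signalling tail of their own. DEX activates the glucocorticoid receptor, a transcription factor that restrains inflammatory genes.

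The libraries held 1475120 to 2529666 reads for mRNA and 821946 to 1833560 for footprints, the LPS footprint libraries being the shallowest. The 8 genes had 24 to 2979 reads in a library, the lowest being those of Tlr4. All 6 macrophage markers examined (Lyz2, Cd68, Ctss, Spi1, Adgre1, Laptm5) were listed, with summed mRNA levels of 3417 and 3422 CPM after LPS + DEX, 3788 and 3431 CPM after LPS, and 3556 and 3794 CPM in basal cells. No T cell, B cell, endothelial or neutrophil marker examined was listed (0 of 3, 0 of 4, 0 of 3 and 0 of 4). The basal mRNA library of replicate 1 stood apart, with Spearman correlations of 0.781 to 0.831 to the other mRNA libraries, which reached 0.894 to 0.98 among themselves. Of 6 epithelial markers examined only the keratin Krt7 was listed. In the basal mRNA library of replicate 1 Krt7 had 1108 CPM, against at most 1.98 CPM in the other 5 mRNA libraries. There 81 genes were at 50 CPM or more while at 5 CPM or less in those 5. The only fibroblast marker listed of 5, the collagen gene Col3a1, had 75.1 and 61.6 CPM of mRNA after LPS + DEX, 46.7 and 51.4 CPM after LPS, and 3.39 and 16.2 CPM in basal cells. Footprints of Col3a1 were at 142.0 and 115.1 CPM in basal cells. They were at 65.1 and 60.8 CPM after LPS and at 134.3 and 127.6 CPM after LPS + DEX. Krt7 footprints in basal replicate 1 were at 0.763 CPM. The part of the basal mRNA library of replicate 1, or of Col3a1, in the results was not tested. Values without that basal library are given with most of the changes against basal cells. Each library is a bulk sample, in which fewer cells carrying an mRNA and less of it per cell cannot be told apart.

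Upstream sequence was at hand for 3 of the 8 genes (Tlr2, Itgam and Fcer1g) from RefSeq, build GRCm38.p6, and 2 stretches are shown because they hold letters known to be bound by NF-kB and by PU.1, transcription factors of macrophages. The Tlr2 stretch lies at chr3:83841761-83841790 on the minus strand, bases -182 to -153 from the annotated start. Capitals mark the match to the NF-kB pattern (GGGA, any base, TT, any base, CC), which is met on both strands at bases -172 to -163. The Itgam stretch lies at chr7:128062540-128062639 on the plus strand, bases -100 to -1. Its capitals mark the letters GAGGAA of the macrophage factor PU.1, which lie on the gene's strand at -84 to -79 and on the opposite strand at -15 to -10.
Tlr2: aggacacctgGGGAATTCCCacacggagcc
Itgam: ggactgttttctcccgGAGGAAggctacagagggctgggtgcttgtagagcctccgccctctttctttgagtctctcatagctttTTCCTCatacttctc
Searched on both strands in the 250 bases before the start of 32851 annotated starts, the NF-kB pattern was found in 0.98% and GAGGAA in 23.3%. Within those 250 bases the NF-kB pattern was not found for Itgam, GAGGAA was not found for Tlr2, and neither was found for Fcer1g. Both motifs were picked after the expression values had been seen, and a match describes letters, not a site of binding.

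Changes of the 8 genes are given as log2 fold changes of CPM + 1, with their standard error (SE) and an adjusted p from limma-trend over all genes tested (a gene passed at an adjusted p under 0.05). The mRNA of Csf1r, Cd14 and Tlr2 was higher after LPS than in basal cells and mRNA of Tyrobp was lower, which makes 4 of 8 genes that passed, where 10.7% of 9277 genes tested passed. Footprints of Csf1r, Cd14 and Tlr2 were higher, and those of Fcer1g lower, after LPS + DEX than after LPS, again 4 of 8 genes, where 6.69% of 8847 genes passed. The ratio of footprints to mRNA was lower after LPS than in basal cells for Csf1r, Cd14 and Tlr2, 3 of 8 genes, where 16.6% of 9412 genes passed. The 8 genes were chosen with earlier results of these data known, so these counts are a description and not a test.

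The other comparisons gave fewer calls, or counts to be read against a higher background. Against basal cells, LPS + DEX changed the mRNA of the same 4 genes in the same directions (4 of 8, where 22.7% of genes passed). Footprints after LPS against basal cells passed for Csf1r alone (1 of 8, where 7.62% passed), and after LPS + DEX against basal cells for Tlr2 alone (1 of 8, where 4.63% passed). A count of 1 among 8 genes is not read here as a result about the genes. The footprint-to-mRNA ratio after LPS + DEX against basal cells passed for Csf1r and Tlr2 (2 of 8, where 14.9% passed). No gene among the 8 passed by limma-trend when DEX was added to LPS, either in mRNA (0% of 9277 genes passed) or in the ratio (0.0531% of 9412 passed). At an unadjusted p under 0.05 there were 183 genes in mRNA, with 1 of the 8 among them (Tlr2), and 597 in the ratio, with 1 of the 8 (Cd14). Limma-voom on reads also called 0 of the 8 in both. The comparisons share libraries: LPS libraries are the baseline of one and the treated group of another, so an opposite sign in LPS against basal and in LPS + DEX against LPS is not independent evidence.

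**Figure D1:**
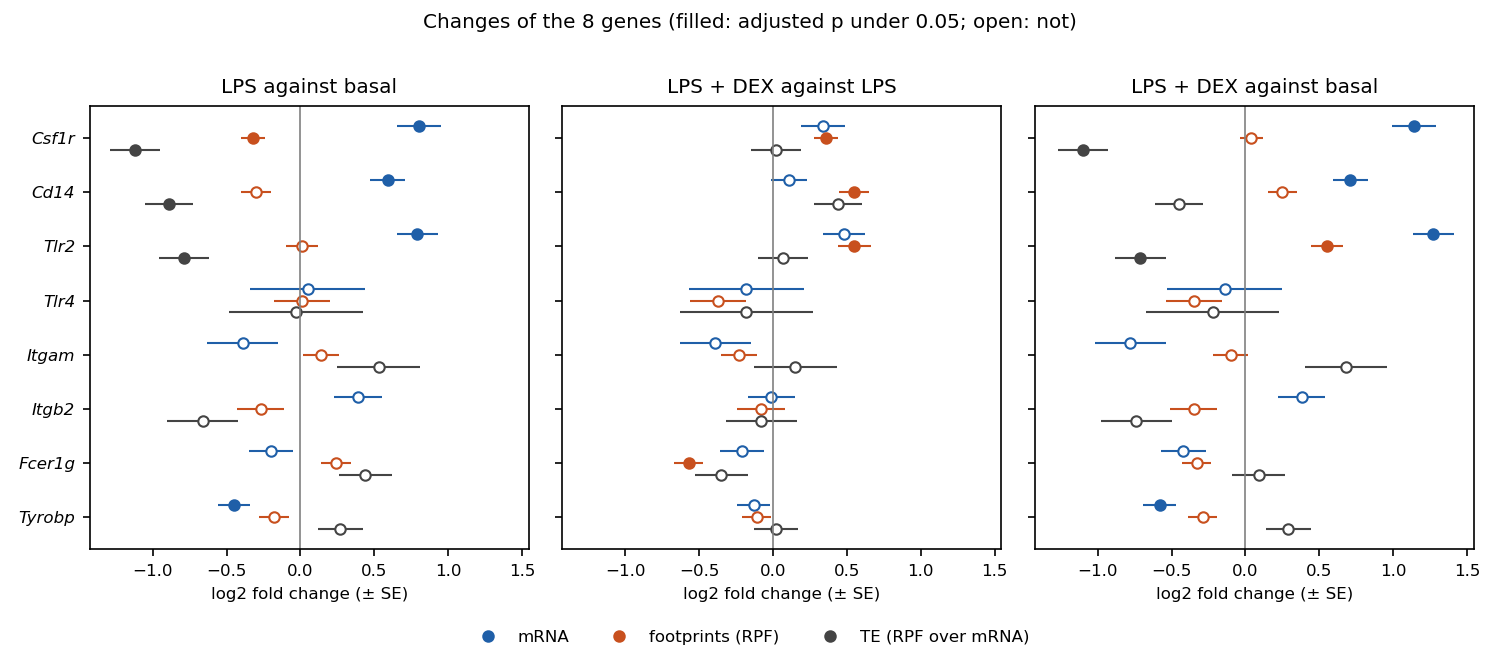
Log2 fold changes of the 8 genes with standard errors, for mRNA, footprints and their ratio (TE) in the 3 comparisons. Filled points passed at an adjusted p under 0.05. Csf1r, Cd14 and Tlr2 lie above 0 in mRNA for LPS against basal (0.80, 0.59 and 0.79) and in footprints for LPS + DEX against LPS (0.36, 0.55 and 0.55), and below 0 in the ratio for LPS against basal (-1.12, -0.89 and -0.79).

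These counts depended on single libraries. The counts over all genes in the same fits did so too and are given in the last paragraph, so a lost call is not particular to the 8 genes. In mRNA for LPS against basal the count of 4 was 0 without LPS replicate 1, 0 without LPS replicate 2 and 2 without basal replicate 1. For LPS + DEX against basal it was 0 without LPS + DEX replicate 1 and 5 without basal replicate 1. In footprints for LPS + DEX against LPS the count of 4 was 0 without LPS + DEX replicate 2, 1 without LPS + DEX replicate 1 and 2 without LPS replicate 2. The ratio change of LPS against basal gave 3 or 4 genes whichever of its 8 libraries was left out. Scaling mattered as well: median-of-ratios scaling, which centres the typical gene, lowered mRNA changes against basal cells by a median of 0.26 (LPS) and 0.28 (LPS + DEX) over all genes. In mRNA for LPS against basal 1 of 8 genes then passed, where 501 of 9277 genes did (184 higher, 317 lower). That gene was Tyrobp, on the lower side, and the rises of Csf1r, Cd14 and Tlr2 did not pass.

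Csf1r (ENSMUSG00000024621), the receptor tyrosine kinase for CSF1 and IL-34, had 1131 and 963 CPM of mRNA after LPS + DEX, 734 and 928 CPM after LPS, and 462 and 484.5 CPM in basal cells. The 3 groups did not overlap, and both treated groups lay above basal cells. Its mRNA rose by 0.80 ± 0.15 (SE, adjusted p = 0.0251 by limma) after LPS and by 1.14 ± 0.15 (adjusted p = 0.00701) after LPS + DEX, each relative to basal cells. Between LPS + DEX and LPS the mRNA difference of 0.34 (95% interval 0.00 to 0.68) did not pass (adjusted p = 1). Without basal replicate 1 the changes against basal cells were 0.77 (adjusted p = 0.0219) for LPS and 1.11 (adjusted p = 0.00126) for LPS + DEX. The LPS call was lost without LPS replicate 1 (0.97, adjusted p = 0.0615), without LPS replicate 2 (0.63, adjusted p = 0.191) and under median-of-ratios scaling (0.54, adjusted p = 0.0807). The LPS + DEX call was lost without LPS + DEX replicate 1 (1.02, adjusted p = 0.0744).

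Footprints of Csf1r followed another order. They stood at 1056 and 1173 CPM after LPS + DEX, 879 and 858 CPM after LPS, and 1104 and 1060.1 CPM in basal cells, so that both LPS libraries were the lowest and the LPS + DEX and basal libraries overlapped. Footprints after LPS were lower than in basal cells by limma (-0.32 ± 0.08, adjusted p = 0.0307), and after LPS + DEX they were higher than after LPS (0.36 ± 0.08, adjusted p = 0.0172). The difference between LPS + DEX and basal cells was 0.04, with a 95% interval of -0.13 to 0.22. Neither call held throughout. The LPS call was lost without LPS replicate 1 (-0.33, adjusted p = 0.118), without LPS replicate 2 (-0.30, adjusted p = 0.152), under median-of-ratios scaling (-0.26, adjusted p = 0.0765) and without the filter on low values (adjusted p = 0.0844). The LPS + DEX call was lost without any 1 of its 4 libraries: LPS + DEX replicate 1 (0.43, adjusted p = 0.054), LPS + DEX replicate 2 (0.28, adjusted p = 0.265), LPS replicate 1 (0.38, adjusted p = 0.0873) or LPS replicate 2 (0.34, adjusted p = 0.12). It was also lost without the filter (adjusted p = 0.0616).

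Cd14 (ENSMUSG00000051439), the LPS co-receptor, had 1178 and 1020.0 CPM of mRNA after LPS + DEX, 1027 and 999 CPM after LPS, and 632 and 714 CPM in basal cells. Both treated groups lay above basal cells and overlapped each other. Its mRNA rose by 0.59 ± 0.12 after LPS (adjusted p = 0.0294, limma) and by 0.71 ± 0.12 after LPS + DEX (adjusted p = 0.0104), each relative to basal cells. The LPS call was lost without basal replicate 1 (0.50, adjusted p = 0.0795), LPS replicate 1 (0.57, adjusted p = 0.114) or LPS replicate 2 (0.61, adjusted p = 0.195). The LPS + DEX call was lost without LPS + DEX replicate 1 (0.60, adjusted p = 0.0768), and without basal replicate 1 it was 0.62 (adjusted p = 0.0207). Median-of-ratios scaling ended both calls (0.33, adjusted p = 0.162, and 0.41, adjusted p = 0.063).

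Cd14 footprints were highest after LPS + DEX, at 919 and 877 CPM, and lowest after LPS, at 626 and 601 CPM, with basal cells between at 680.0 and 836 CPM. The 3 groups did not overlap. LPS + DEX raised footprints over LPS by 0.55 ± 0.10 (adjusted p = 0.00397, limma), a change above that of 92.1% of genes tested. The differences from basal cells did not pass (LPS -0.30, 95% interval -0.51 to -0.09, adjusted p = 0.0857; LPS + DEX 0.25, 0.04 to 0.46, adjusted p = 0.188). The call was lost without LPS replicate 2 (0.52, adjusted p = 0.0529), LPS + DEX replicate 1 (0.52, adjusted p = 0.0887) or LPS + DEX replicate 2 (0.58, adjusted p = 0.0798). The LPS difference from basal cells passed without basal footprint replicate 1 (-0.45, adjusted p = 0.00146), and that of LPS + DEX without basal footprint replicate 2 (0.40, adjusted p = 0.00844).

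Tlr2 (ENSMUSG00000027995), the receptor for bacterial lipopeptides whose upstream stretch is shown above, had 426.5 and 474 CPM of mRNA after LPS + DEX, 294 and 354 CPM after LPS, and 182 and 190.0 CPM in basal cells. The 3 groups stood apart in that order. Its mRNA rose by 0.79 ± 0.14 after LPS (adjusted p = 0.0228, limma) and by 1.27 ± 0.14 after LPS + DEX (adjusted p = 0.0058) relative to basal cells, and the change after LPS + DEX was the largest mRNA change among the 8 genes. Adding DEX to LPS gave a difference of 0.48 (95% interval 0.16 to 0.79), which did not pass over all genes (adjusted p = 1). Without basal replicate 1 the changes against basal cells were 0.76 (adjusted p = 0.0245) and 1.24 (adjusted p = 0.000684). The LPS call was lost without LPS replicate 1 (0.92, adjusted p = 0.0615), LPS replicate 2 (0.66, adjusted p = 0.183) or under median-of-ratios scaling (0.53, adjusted p = 0.0601). The LPS + DEX call was not made without LPS + DEX replicate 1 (1.34, adjusted p = 0.0744).

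Footprints of Tlr2 were raised in the LPS + DEX libraries alone, at 238 and 243 CPM, against 165 and 163 CPM after LPS and 162 and 165 CPM in basal cells. The LPS and basal libraries overlapped, and their difference was 0.01 (95% interval -0.23 to 0.24). LPS + DEX raised Tlr2 footprints by 0.55 ± 0.11 over LPS (adjusted p = 0.00734, limma) and by 0.55 ± 0.11 over basal cells (adjusted p = 0.00802). Without LPS + DEX replicate 1 these were 0.56 (adjusted p = 0.0887) and 0.57 (adjusted p = 0.11), and without LPS + DEX replicate 2 both were 0.54 (adjusted p = 0.14 in each), so both calls needed the pair of LPS + DEX libraries.

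Tlr4 (ENSMUSG00000039005), the signalling receptor for LPS, was the least read of the 8 genes. It had 16.6 and 27.9 CPM of mRNA after LPS + DEX, 24.2 and 25.0 CPM after LPS, and 16.3 and 34.6 CPM in basal cells, from 24 to 64 reads a library. All 3 groups overlapped in mRNA. Its footprints stood at 35.1 and 48.0 CPM after LPS + DEX, 54.3 and 52.3 CPM after LPS, and 55.7 and 50 CPM in basal cells, from 43 to 88 reads. Both LPS + DEX libraries were the lowest, yet the difference from LPS (-0.37, 95% interval -0.79 to 0.05, adjusted p = 0.307 by limma) did not pass. The mRNA intervals were wide, at -0.87 to 0.97 for LPS against basal and -1.10 to 0.73 for LPS + DEX against LPS, so changes of the size seen for Tlr2 lie within them. The sign of the LPS mRNA difference (0.05) turned to -0.21 under median-of-ratios scaling and to -0.48 without basal replicate 1.

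**Figure D2:**
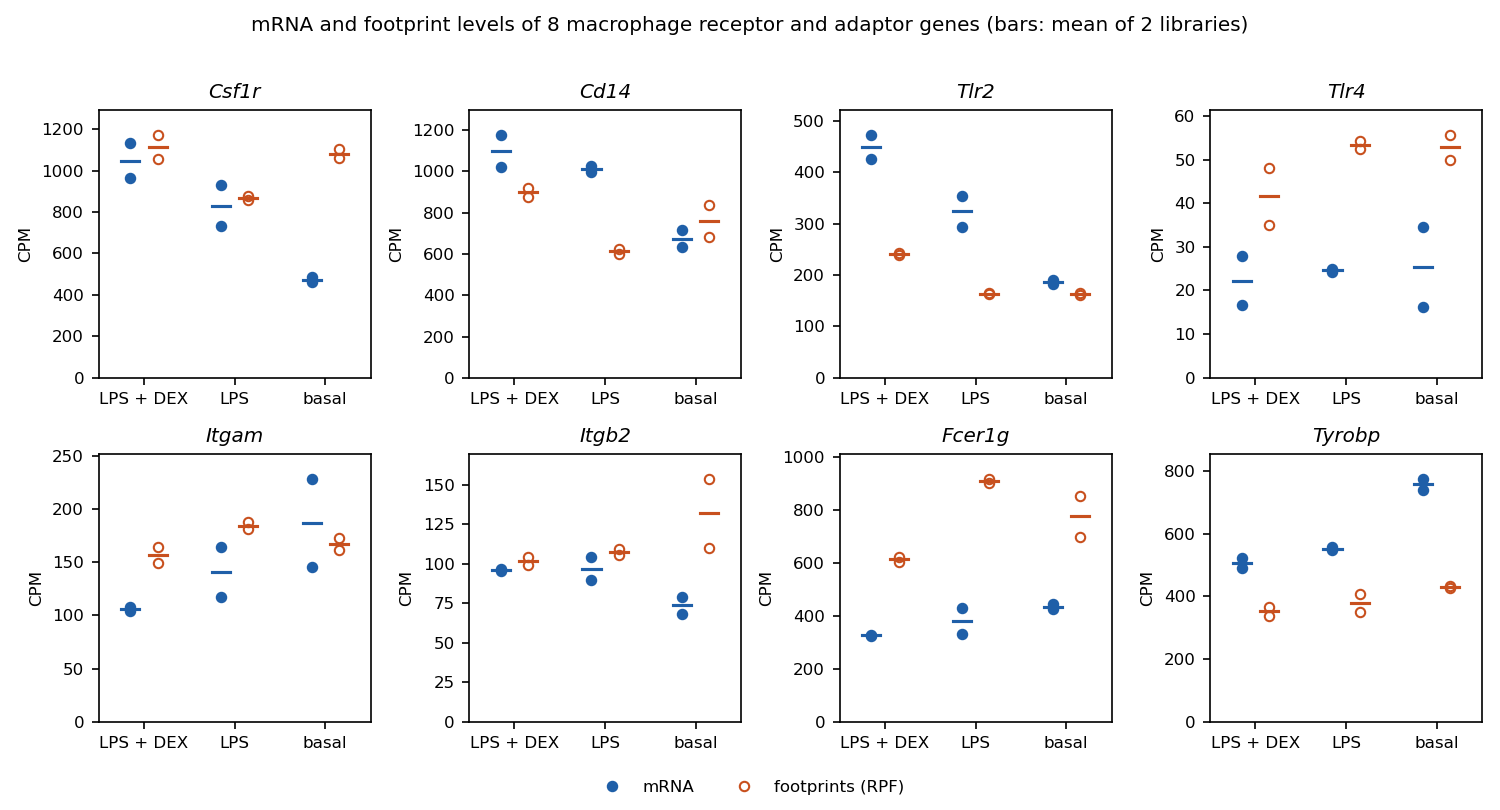
CPM of mRNA and of footprints for each of the 8 genes in the LPS + DEX, LPS and basal libraries, one point per library and a line at the mean of each group. In mRNA, Tlr2 had 426.5 and 474 CPM (LPS + DEX), 294 and 354 CPM (LPS) and 182 and 190.0 CPM (basal), while its footprints are raised in the LPS + DEX libraries alone.

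The integrin chains gave no call in the full set of libraries by library totals. Itgam (ENSMUSG00000030786), the αM chain or CD11b, had 104 and 108 CPM of mRNA after LPS + DEX, 164 and 117 CPM after LPS, and 146 and 228 CPM in basal cells. The LPS + DEX libraries were the lowest, and the LPS and basal libraries overlapped. The difference of LPS + DEX from basal cells was -0.78 ± 0.24 (95% interval -1.34 to -0.21), and it missed the threshold (adjusted p = 0.0561, limma). It passed without basal replicate 1 (-1.10, adjusted p = 0.00407) and under median-of-ratios scaling (-1.07, adjusted p = 0.0257). Its footprints lay closer together, at 164.5 and 149 CPM after LPS + DEX, 181 and 187 CPM after LPS, and 162 and 173 CPM in basal cells, with a difference of -0.23 (95% interval -0.48 to 0.02) between LPS + DEX and LPS.

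Itgb2 (ENSMUSG00000000290), the shared β2 chain or CD18, had 96.9 and 95.7 CPM of mRNA after LPS + DEX, 89.8 and 104 CPM after LPS, and 79.3 and 68.2 CPM in basal cells. Both treated groups lay above basal cells, but neither difference passed by limma (LPS 0.39, 95% interval 0.01 to 0.77, adjusted p = 0.15; LPS + DEX 0.38, 0.01 to 0.76, adjusted p = 0.124). Without basal replicate 1 they were 0.50 (adjusted p = 0.175) and 0.49 (adjusted p = 0.136). Footprints stood at 99.2 and 104 CPM after LPS + DEX, 109.7 and 106 CPM after LPS, and 109.9 and 154 CPM in basal cells, where replicate 2 was the highest of the 6. Their difference between LPS + DEX and basal cells was -0.35 (95% interval -0.69 to -0.02, adjusted p = 0.253), and it passed without basal footprint replicate 1 (-0.59, adjusted p = 0.032). After LPS the mRNA difference of Itgam was -0.39 (95% interval -0.96 to 0.17, adjusted p = 0.31), and it was -0.71 without basal replicate 1, -0.07 without basal replicate 2, -0.63 without LPS replicate 1 and -0.15 without LPS replicate 2.

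By library totals, calls among the ITAM adaptors were made in footprints for Fcer1g and in mRNA for Tyrobp. Fcer1g (ENSMUSG00000058715), the common γ chain of Fc receptors, had 624 and 605 CPM of footprints after LPS + DEX, 902 and 917 CPM after LPS, and 699 and 852 CPM in basal cells. The 3 groups did not overlap, with LPS highest and LPS + DEX lowest. Footprints fell by 0.57 ± 0.10 on the log2 scale after LPS + DEX relative to LPS (adjusted p = 0.00276, limma), a change below that of all but 7.4% of genes. The call was kept without LPS + DEX replicate 1 or either LPS replicate and was lost without LPS + DEX replicate 2 (-0.54, adjusted p = 0.0922). Relative to basal cells the footprint differences were 0.24 (95% interval 0.03 to 0.44, adjusted p = 0.155) after LPS and -0.33 (-0.53 to -0.12, adjusted p = 0.0721) after LPS + DEX. Without basal footprint replicate 2 the LPS difference passed (0.38, adjusted p = 0.0109), and without basal footprint replicate 1 the LPS + DEX difference passed (-0.47, adjusted p = 0.000947).

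Fcer1g mRNA stood at 328.5 and 323.5 CPM after LPS + DEX, 431 and 331 CPM after LPS, and 427 and 443 CPM in basal cells. The LPS + DEX libraries were the lowest, and LPS replicate 2 lay near them while LPS replicate 1 lay with the basal libraries. The difference of -0.42 between LPS + DEX and basal cells (95% interval -0.76 to -0.08, adjusted p = 0.077 by limma) did not pass, and under median-of-ratios scaling it did (-0.71, adjusted p = 0.0252). Without basal replicate 1 it was -0.44 (adjusted p = 0.121).

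Tyrobp (ENSMUSG00000030579), which encodes DAP12, the partner of TREM2, had 523 and 491 CPM of mRNA after LPS + DEX, 558 and 548 CPM after LPS, and 776 and 741 CPM in basal cells. The basal libraries were the highest, and the 3 groups did not overlap. Its mRNA fell by 0.45 ± 0.11 after LPS (adjusted p = 0.0389, limma) and by 0.58 ± 0.11 after LPS + DEX (adjusted p = 0.0119), each relative to basal cells and on the log2 scale. The LPS call was lost without any 1 of its 4 libraries: LPS replicate 1 (-0.47, adjusted p = 0.122), LPS replicate 2 (-0.44, adjusted p = 0.228), basal replicate 1 (-0.42, adjusted p = 0.136) or basal replicate 2 (-0.49, adjusted p = 0.0545). By limma-voom it was -0.45 (adjusted p = 0.0526). It was kept under median-of-ratios scaling (-0.72, adjusted p = 0.0217). The LPS + DEX call was lost without LPS + DEX replicate 1 (-0.62, adjusted p = 0.0744), and it was -0.55 (adjusted p = 0.0362) without basal replicate 1. Footprints of Tyrobp were 339 and 365 CPM after LPS + DEX, 409 and 352 CPM after LPS, and 427 and 435 CPM in basal cells, and no footprint difference passed (LPS + DEX against basal -0.29, 95% interval -0.51 to -0.07, adjusted p = 0.135).

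Footprints and mRNA were then set against each other as the log2 ratio of footprints to mRNA, in which library totals and not gene lengths enter. For Csf1r the ratio was 0.09 after LPS + DEX, 0.07 after LPS and 1.19 in basal cells (SE 0.12 each), where the median of 9412 genes was -0.08, -0.06 and 0.21. Cd14 had -0.29, -0.72 and 0.17 (SE 0.11) and Tlr2 -0.90, -0.97 and -0.19 (SE 0.12) in the same order of conditions. All 3 genes had their highest ratio in basal cells. Among the others, Itgb2 had 0.08, 0.15 and 0.81 (SE 0.17) and Tlr4 0.90, 1.08 and 1.12 (SE 0.32), and Itgam had 0.56, 0.40 and -0.12 (SE 0.20). The adaptors had ratios of 0.91, 1.26 and 0.82 (SE 0.13) for Fcer1g and -0.52, -0.54 and -0.81 (SE 0.10) for Tyrobp. Itgam, Fcer1g and Tyrobp had their lowest ratio in basal cells, where the all-gene median was highest by library totals. Under median-of-ratios scaling the all-gene medians were -0.02, -0.04 and -0.05.

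**Figure D3:**
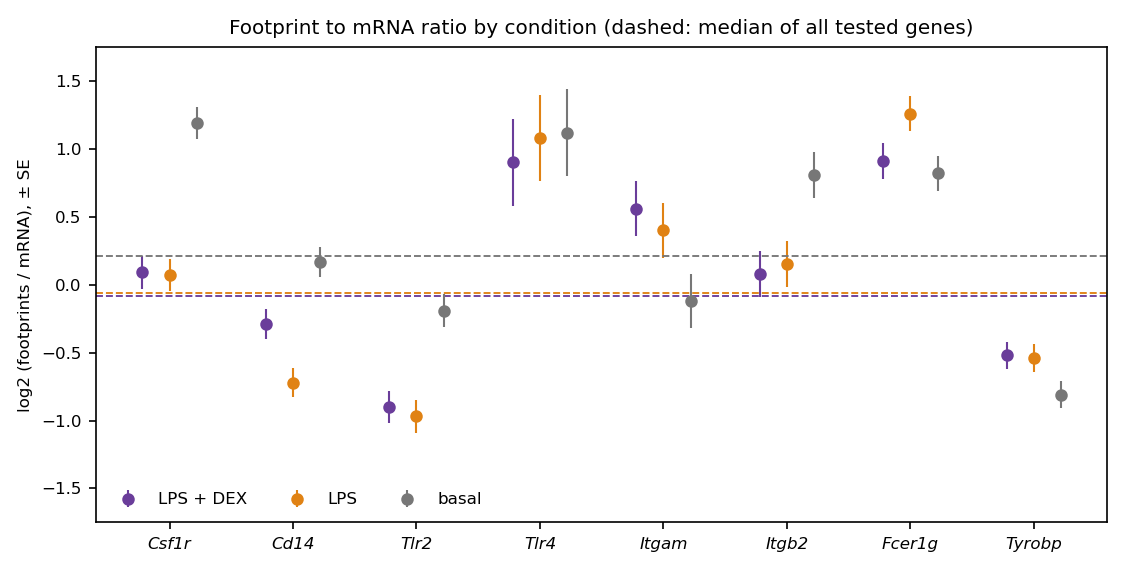
Log2 ratio of footprints to mRNA for each of the 8 genes in the LPS + DEX, LPS and basal conditions, with standard errors and the median of all genes tested. Csf1r stands at 0.09, 0.07 and 1.19 and Tyrobp at -0.52, -0.54 and -0.81, while the median of all genes was -0.08, -0.06 and 0.21.

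The change of the ratio, tested as 1 interaction over all 12 libraries, was lower after LPS than in basal cells for Csf1r (-1.12 ± 0.17, adjusted p = 0.00186, limma), Cd14 (-0.89 ± 0.16, adjusted p = 0.00414) and Tlr2 (-0.79 ± 0.17, adjusted p = 0.00872). The median change of all genes in that comparison was -0.34, and 13.6% of genes passed on the lower side. Without basal mRNA replicate 1 the changes were -1.08 (adjusted p = 0.00269), -0.80 (adjusted p = 0.00971) and -0.76 (adjusted p = 0.0226). All 3 calls were kept whichever of the 8 libraries was left out, with changes of -1.29 to -0.95, -1.04 to -0.74 and -0.92 to -0.65. Under median-of-ratios scaling, which raised ratio changes by a median of 0.29, Csf1r (-0.82, adjusted p = 0.00687) and Cd14 (-0.59, adjusted p = 0.0325) passed and Tlr2 did not (-0.49, adjusted p = 0.0658). The same scaling made Fcer1g (0.74, adjusted p = 0.0259) and Tyrobp (0.57, adjusted p = 0.0294) pass on the higher side, where they had 0.44 (adjusted p = 0.111) and 0.27 (adjusted p = 0.215) by library totals. Itgam passed on the higher side without basal mRNA replicate 1 (0.85, adjusted p = 0.0326, against 0.53 and adjusted p = 0.208 with it). Itgb2 passed on the lower side without basal footprint replicate 1 (-0.90, adjusted p = 0.0305, against -0.66 and adjusted p = 0.0755 with it). Fcer1g passed on the higher side without LPS mRNA replicate 1 (0.63, adjusted p = 0.0277).

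After LPS + DEX against basal cells the ratio was lower for Csf1r (-1.10 ± 0.17, adjusted p = 0.00253, limma) and Tlr2 (-0.71 ± 0.17, adjusted p = 0.0155). For Cd14 it was -0.45 (95% interval -0.80 to -0.10, adjusted p = 0.0763), which passed without basal mRNA replicate 2 (-0.54, adjusted p = 0.0461), LPS + DEX mRNA replicate 2 (-0.56, adjusted p = 0.0459) or basal footprint replicate 1 (-0.60, adjusted p = 0.041). Csf1r passed in every fit that left out a library (-1.21 to -0.98) and under median-of-ratios scaling (-0.76, adjusted p = 0.0112). Tlr2 did not pass without LPS + DEX footprint replicate 1 (-0.70, adjusted p = 0.0625) or replicate 2 (-0.73, adjusted p = 0.0501), or under median-of-ratios scaling (-0.38, adjusted p = 0.158). That scaling gave calls on the higher side for Itgam (1.02, adjusted p = 0.0348) and Tyrobp (0.63, adjusted p = 0.0209). Without basal mRNA replicate 1, Cd14 stood at -0.37 (adjusted p = 0.203), Csf1r at -1.06 (adjusted p = 0.00343), Tlr2 at -0.68 (adjusted p = 0.0376) and Itgam at 1 (adjusted p = 0.0164, against 0.68 and adjusted p = 0.118 with it). Without basal footprint replicate 1, Itgb2 passed at -0.98 (adjusted p = 0.0273, against -0.74 and adjusted p = 0.0561 with it).

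Adding DEX to LPS left the ratio of Csf1r at a difference of 0.02 (95% interval -0.34 to 0.38) and that of Tlr2 at 0.07 (-0.29 to 0.44). The ratio of Cd14 differed by 0.44 (0.09 to 0.79, adjusted p = 0.637 by limma) and that of Fcer1g by -0.35 (-0.74 to 0.04, adjusted p = 0.845). For Tlr2 the mRNA difference (0.48) and the footprint difference (0.55) were close, whereas for Cd14 the footprint difference (0.55) stood beside an mRNA difference of 0.11 (95% interval -0.17 to 0.40).

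**Figure D4:**
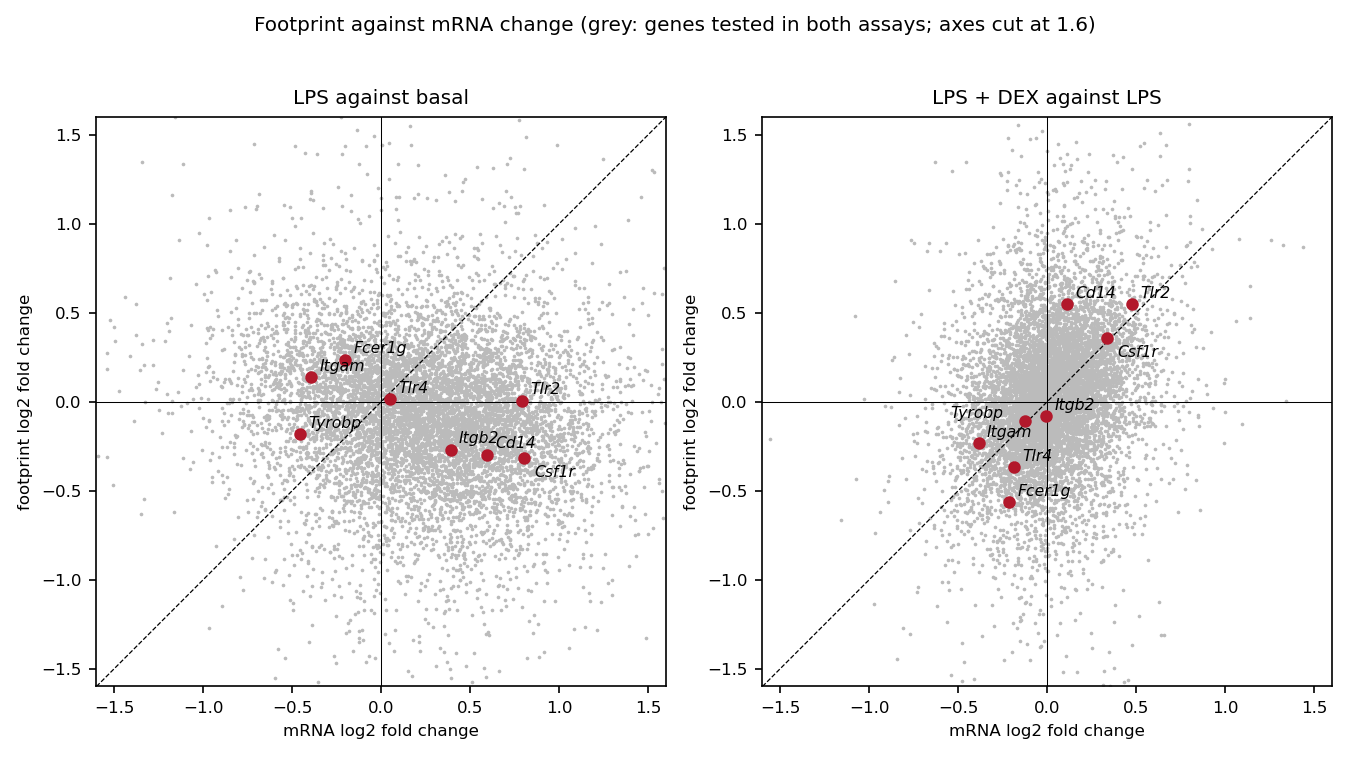
Footprint against mRNA log2 fold change for LPS against basal (left) and LPS + DEX against LPS (right), with the 8 genes in red over all genes tested in both assays in grey and the dashed line marking equal change. On the left Csf1r, Cd14 and Tlr2 lie at mRNA changes of 0.80, 0.59 and 0.79 with footprint changes of -0.32, -0.30 and 0.01, and on the right Fcer1g lies lowest at a footprint change of -0.57. Of 8697 genes, 230 (left) and 104 (right) lie outside the axes.

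The summed footprint level of the 8 genes stood at 3475 and 3564 CPM after LPS + DEX, 3325 and 3236 CPM after LPS, and 3398 and 3724 CPM in basal cells. In mRNA it stood at 3804 and 3503 CPM after LPS + DEX, 3323 and 3406 CPM after LPS, and 2720 and 2904 CPM in basal cells. The median mRNA change of all genes against basal cells was 0.26 for LPS and 0.28 for LPS + DEX, and these sums are not read as particular to the 8 genes.

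Other genes of the same pathways were taken from 5 lists, also chosen with earlier results of these data known. They are given as counts beside the all-gene share and median. In mRNA for LPS against basal, 4 of 17 genes of CSF receptors, ligands and signalling rose (median 0.69), and so did 5 of 27 of TLR co-receptors and signalling (median 0.49) and 2 of 19 integrins and their regulators (median 0.57). The same held for 3 of 21 of ITAM-coupled receptors and signalling (median 0.25) and 4 of 29 other macrophage surface receptors (median 0.35). No gene of the 5 lists fell by limma-trend or limma-voom (2 were lower at an unadjusted p under 0.05), where 9.03% of all genes rose and 1.68% fell and the all-gene median was 0.26. Runx1, a transcription factor of myeloid cells, had 33.2 and 31.9 CPM after LPS + DEX, 18.3 and 32.9 CPM after LPS, and 6.78 and 7.58 CPM in basal cells (LPS against basal 1.65 ± 0.33, adjusted p = 0.0276). Its basal values came from 10 and 14 reads. Tgfbr2, a TGF-β receptor chain, had 87.8 and 84.6 CPM after LPS + DEX, 68.6 and 76.0 CPM after LPS, and 32.5 and 35.2 CPM in basal cells (LPS against basal 1.07 ± 0.17, adjusted p = 0.0209). Plcg2, a phospholipase downstream of Syk, rose by 0.85 ± 0.15 (adjusted p = 0.0228), Tln1, the integrin activator talin, by 1.03 ± 0.17 (adjusted p = 0.0216), and Ticam1, the TLR adaptor TRIF, by 1.30 ± 0.30 (adjusted p = 0.0372).

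These list results leaned on the scaling, as did the counts over all genes, and moved without the basal library that stood apart. Under median-of-ratios scaling 0 genes of the TLR and integrin lists passed, and the ITAM list had 0 higher and 1 lower with a median of -0.01. The CSF list had 1 higher and the other receptors 1 higher and 1 lower. Over all 9277 genes tested 184 were higher and 317 lower under that scaling, with a median of 0.01. Of the 5 genes just named Runx1 (1.41, adjusted p = 0.0483) and Tgfbr2 (0.81, adjusted p = 0.0362) passed. Without basal replicate 1 the list medians were 0.41 (TLR), 0.72 (CSF), 0.60 (integrin), 0.16 (ITAM) and 0.39 (other), beside an all-gene median of 0.22. Limma-voom called 1 TLR, 0 CSF, 1 integrin, 1 ITAM and 3 other genes higher, with 11 CSF genes higher at an unadjusted p under 0.05. Over all genes limma-voom called 355 higher and 109 lower. In the fit without basal replicate 1, Runx1 (1.58), Tgfbr2 (1.02), Plcg2 (0.79) and Tln1 (1.01) passed and Ticam1 did not (0.95, adjusted p = 0.0507). Cx3cr1, the fractalkine receptor, had 628 and 362 CPM of mRNA after LPS + DEX, 548.5 and 357 CPM after LPS, and 17.6 and 141 CPM in basal cells. Its LPS change of 3.11 ± 0.80 (adjusted p = 0.0497) was 1.65 (adjusted p = 0.00296) without basal replicate 1, which held the value of 17.6 CPM.

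In footprints for LPS + DEX against LPS, 4 of 19 integrins and regulators rose and 0 fell (by limma-voom likewise, and 2 were lower at an unadjusted p under 0.05), and 4 of 29 other surface receptors rose and 2 fell (2 and 2 by limma-voom), where 3.14% of all genes rose and 3.55% fell. The ITAM list had 2 of 21 higher and 2 lower, the TLR list 1 of 27 higher and 1 lower and the CSF list 1 of 16 higher and 1 lower. Il6ra, the IL-6 receptor α chain, had 64.1 and 60.5 CPM of footprints after LPS + DEX, 25.3 and 14.6 CPM after LPS, and 45.0 and 55.9 CPM in basal cells (LPS + DEX against LPS 1.64 ± 0.24, adjusted p = 0.00101, limma). The adaptor Shc1, which binds active receptor kinases, had 55.0 and 80.7 CPM after LPS + DEX, 24.1 and 31.6 CPM after LPS, and 80.9 and 98.0 CPM in basal cells (1.24 ± 0.21, adjusted p = 0.00298). Both were lowest after LPS, where Il6ra had 21 and 12 reads and Shc1 had 20 and 26 reads. Clec4d, a C-type lectin receptor that signals through FcRγ, had 119 and 104 CPM after LPS + DEX, 203 and 175 CPM after LPS, and 227 and 216 CPM in basal cells, and fell by 0.76 ± 0.12 relative to LPS (adjusted p = 0.00215). Fcgr3, an Fc receptor that uses the same adaptor, had 65.9 and 83.4 CPM after LPS + DEX, 41.0 and 41.4 CPM after LPS, and 64.9 and 78.3 CPM in basal cells. Its LPS values came from 34 reads in each library. It rose by 0.83 ± 0.18 relative to LPS (adjusted p = 0.0115, limma), so that partners of Fcer1g changed in both directions. Fermt3, the integrin activator kindlin-3, rose by 0.52 ± 0.11 (adjusted p = 0.0093, limma).

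For LPS against basal in footprints the lists gave few calls, with 3 of 21 ITAM genes lower, 4 of 29 other receptors lower and 1 higher, and 2 of 27 TLR genes lower and 1 higher. There were also 1 of 16 CSF genes lower and 0 of 19 integrin genes by limma-trend and limma-voom (3 at an unadjusted p under 0.05), where 3.30% of all genes rose and 4.32% fell. Under median-of-ratios scaling 1 of the other receptors was lower and 2 of the TLR genes were higher. Cnpy3, a chaperone that TLRs need to leave the endoplasmic reticulum, had 50.2 and 55.6 CPM of footprints after LPS + DEX, 60.3 and 46.2 CPM after LPS, and 108 and 109.8 CPM in basal cells. It fell by 1.03 ± 0.17 after LPS (adjusted p = 0.00195) and by 1.03 ± 0.17 after LPS + DEX (adjusted p = 0.00246), each relative to basal cells. The phosphatase Ptpn6 (SHP-1), which dampens ITAM signals, fell by 0.53 ± 0.09 after LPS (adjusted p = 0.00342).

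The footprint-to-mRNA ratio for LPS against basal was lower for 9 of 17 CSF genes (median -0.71), 7 of 21 ITAM genes (median -0.48), 7 of 29 other receptors (median -0.76), 6 of 19 integrin genes (median -0.70) and 5 of 27 TLR genes (median -0.77), with 1 TLR gene higher, where the all-gene median was -0.34 and 13.6% of all genes passed on the lower side. Under median-of-ratios scaling the list medians in the same order were -0.41, -0.19, -0.48, -0.41 and -0.49, beside an all-gene median of -0.06. On the higher side 2 TLR, 1 ITAM and 1 other receptor gene then passed, where 558 of 9412 genes did. The counts on the lower side, where 502 genes passed, were 2, 1, 3, 1 and 1. Without basal mRNA replicate 1 they were 4, 5, 7, 3 and 3 (961 of all genes), and by limma-voom 3, 3, 4, 1 and 2 (664 of all genes). The ratio fell for Shc1 of the CSF list (-2.40 ± 0.32, adjusted p = 0.00131, limma), Tgfbr2 of the other receptors (-1.55 ± 0.23, adjusted p = 0.00186) and Plcg2 of the ITAM list (-0.98 ± 0.18, adjusted p = 0.00458). These 3 passed under median-of-ratios scaling (-2.11, -1.26 and -0.69) and without basal mRNA replicate 1 (-2.32, -1.50 and -0.92) as well.

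Genes of like pattern were sought by the root mean square difference of log2 values over the 12 libraries, centred within each assay, among 5599 genes with a mean of at least 20 CPM in each assay. For Csf1r the nearest were Nup188 (0.065) and Fmnl1 (0.066), for Cd14 Smarcb1 (0.079) and Copa (0.09), and for Tlr2 Dock2 (0.085) and Myo1e (0.102). Itgam lay nearest to Lsm8 (0.087) and Ssr1 (0.102), Itgb2 to Gm16286 (0.086) and Sdhd (0.093), Fcer1g to the lysozyme gene Lyz2 (0.086) and Tomm20 (0.093), and Tyrobp to Chmp2a (0.064) and Chchd3 (0.078). Tlr4 had no comparably near gene, with Rad51ap1 at 0.165 and Rbbp8 at 0.166, and the median difference over all candidates was 0.29 to 0.41. Among the 8 genes themselves, Csf1r and Tlr2 were nearest to each other (0.178), Cd14 was nearest to Csf1r (0.184), Itgam to Fcer1g (0.195) and Tyrobp to Fcer1g (0.198). The scale is a difference of log2 values and gives no test.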

How the data were processed

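The authors' deposited values are CPM + 1 per Ensembl gene and library, which was read from the values: after subtracting 1, 100% of them are whole multiples of 1 read (tolerance 0.1 read). Of the aligner, genome build and annotation nothing is given in the sources used here. Symbols were matched to 9521 of 9621 Ensembl identifiers; the listed genes hold 97.35% to 98.91% of reads. A count of 3 reads was worth 1.186 to 3.65 CPM. The submitters describe the replicates as independent biological ones.

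Genes that would have 10 or more reads in 2 or more libraries at the median depth, and 15 or more reads summed over libraries, were tested with limma-trend (limma 3.58.1, R 4.3.3) on log2 of the deposited value, with treatment as the only factor, in 1 fit of 6 libraries per assay. The change of translational efficiency (footprint change minus mRNA change) was an interaction in 1 fit of 12 libraries. P values are two-sided and Benjamini-Hochberg adjusted over all genes tested, with 0.05 as the threshold. As a check of the code, the fits were also run on simulated counts in which all libraries varied alike. A library that stands apart was not imitated, so the simulation does not show how the fits perform on these libraries. No replicate pair agreed within sampling noise.

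Members and lists were chosen with earlier results of these data known. Named genes are the 8 members, up to 3 genes per list and comparison with the largest change that passed (of which some are printed), and the 2 of most like pattern per member. Alternatives were median-of-ratios scaling, log2(CPM + 2), no filter, a replicate block, leaving out each library and, chosen after seeing the data, limma-voom on reads. Promoter sequences come from RefSeq (GRCm38.p6).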

Additional observations from a re-analysis of the deposited data

How the results depend on the processing

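Depth limits Tlr4 most, and 2 libraries a group limit every comparison. A planned edgeR fit was not run, because the deposited values are CPM + 1 and not raw counts. Limma-voom on reads recovered from those values, chosen after seeing the data, took its place. Over the 8 genes and 9 comparisons, log2(CPM + 2) changed no call and no sign. Median-of-ratios scaling called 1 gene, Tyrobp, in mRNA for LPS against basal (4 by library totals) and 0 in footprints (1 by library totals). It reversed Tlr4 in mRNA for LPS against basal (-0.21) and in the ratio for LPS (0.25) and LPS + DEX (0.10) against basal. Without the filter 0 genes passed in footprints for LPS against basal. Limma-voom called 2 in footprints for LPS + DEX against basal (1 by limma-trend) and reversed the Tlr4 ratio for LPS against basal (0.03).

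Replicate numbers did not pair the libraries (deviation correlations of -0.196 to 0.116), and the replicate block gave 2 genes called in mRNA for LPS against basal, losing Cd14 (adjusted p = 0.0601) and Tyrobp (adjusted p = 0.0759), and changed no other call among the 8 genes. It called 390 genes there, where the fit without it called 994.

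Leaving out 1 library gave 0 to 3 genes called in mRNA for LPS against basal, 0 to 5 for LPS + DEX against basal, and in footprints 0 to 2 (LPS against basal), 0 to 3 (LPS + DEX against LPS) and 0 to 3 (LPS + DEX against basal). In the ratio it gave 1 to 4 for LPS + DEX against basal. With an arm of 1 library, that library is assumed to vary like the other groups. Changes whose sign turned when a library was left out were small in the full fit, but those of Tlr4 ranged widely. For Tlr4 the ranges were -0.48 to 0.57, -0.54 to 0.17 and -0.66 to 0.39 in mRNA (LPS against basal, LPS + DEX against LPS, LPS + DEX against basal), -0.06 to 0.09 in footprints for LPS against basal, and -0.56 to 0.49, -0.54 to 0.17 and -0.74 to 0.30 in the ratio in the same order. For LPS + DEX against LPS they were -0.11 to 0.10 for Itgb2 mRNA, -0.21 to 0.00 for Tyrobp footprints, and in the ratio -0.15 to 0.19 (Csf1r), -0.06 to 0.21 (Tlr2), -0.09 to 0.39 (Itgam), -0.18 to 0.03 (Itgb2) and -0.09 to 0.13 (Tyrobp). The remaining ranges were -0.01 to 0.02 for Tlr2 footprints (LPS against basal), -0.03 to 0.12 for Csf1r footprints and -0.06 to 0.23 for the Fcer1g ratio (both LPS + DEX against basal). The cause was not tested.

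Counts over all genes moved as well. In mRNA for LPS against basal 994 genes passed (838 higher, 156 lower), against 501 under median-of-ratios scaling (184 higher, 317 lower), 464 by limma-voom and 6 to 2179 without 1 library. For LPS + DEX against basal in mRNA 2106 passed (1714 higher, 392 lower), with 720 higher and 826 lower under median-of-ratios scaling and 1 to 2875 without 1 library. In footprints 674, 592 and 410 passed (LPS against basal, LPS + DEX against LPS, LPS + DEX against basal), against 281, 273 and 132 without the filter, and limma-voom called 619 in the last. Without 1 library these were 375 to 709, 103 to 317 and 100 to 457. Median-of-ratios scaling turned 292 higher and 382 lower into 378 and 279 (LPS against basal) and 157 and 253 into 198 and 186 (LPS + DEX against basal). In the ratio 290 genes were higher and 1277 lower for LPS against basal, against 558 and 502 under that scaling, and 252 and 1149 for LPS + DEX against basal, against 507 and 356. Limma-voom called 870 ratio changes for LPS against basal, where limma-trend called 1567. Without 1 library the ratio gave 736 to 2164 (LPS against basal) and 546 to 1895 (LPS + DEX against basal). For LPS + DEX against LPS it gave 5 calls, with 20 for log2(CPM + 2), 7 under median-of-ratios scaling, 0 by limma-voom or with the replicate block, and 0 to 52 without 1 library.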
